A study of Mus musculus with 107 samples.

Results

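Vcam1, Icam1, Icam2, Sele, Selp, Selplg, Ackr1 and Cd34 encode proteins by which leukocytes in the blood are caught and held at the vessel wall. The genes were taken by symbol from the deposited expression table, where each symbol had 1 row, and they are 8 of its 50686 genes. Leukocytes first roll on selectins of the endothelium and then arrest when their integrins bind immunoglobulin-family ligands such as the intercellular and vascular cell adhesion molecules. In endothelium, inflammatory cytokines switch on several of these genes, largely through the transcription factor NF-kB. Tumor vessels are known for carrying little of these molecules, a state called endothelial anergy that angiogenic growth factors help to maintain.

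RNA was sequenced from tumors of 12 mouse syngeneic models, each made from 1 cancer cell line grown under the skin of the flank in mice aged 7 weeks. Treatment-naive tumors (35 tumors) were collected at about 100 mm3. Mice with tumors of that size were otherwise given no treatment (NT, 36 tumors) or LEN (36 tumors), which is lenvatinib, an oral inhibitor of receptor tyrosine kinases that include the VEGF and FGF receptors. LEN was dosed every day for 7 days at 10 mg/kg, and NT and LEN tumors were collected on day 8. Every group held 3 tumors, except treatment-naive MC38 with 2. BNL 1ME A.7R.1, Renca, RAG, CT26.WT, 4T1 and EMT6 grew in BALB/cAnNCrlCrlj mice, RAG from cells adapted to growth in mice, and Hepa 1-6 in C57L/J mice. MC38 and B16-F10 grew in C57BL/6NCrl mice, LL/2 in C57BL/6JCrl, KLN205 in DBA/2NCrl and MBT2 in C3H/HeNCrl. Between models grown in different host strains, cell line and strain cannot be told apart; the 6 BALB/cAnNCrlCrlj models share their strain. Hosts were male for BNL 1ME A.7R.1 and Hepa 1-6 and female for the other models, so host sex cannot be told apart from the model either. The labels list the tumors as separate samples without naming the mouse, so p-values measure the spread between these tumors.

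Expression is given as TPM (transcripts scaled to a fixed total), which corrects for transcript length and allows levels of different genes to be compared. TPM keeps no sequencing depth, so the counting error of each value is unknown. Changes are differences of mean log2(TPM + 1), which understates changes of genes at low TPM. A set of 6 abundant non-coding RNAs took 15.8% to 41.7% of the TPM of a tumor, with medians of 30.5% in treatment-naive, 26.2% in NT and 24.2% in LEN tumors. Blood vessels and leukocytes were present by their markers: none of 8 endothelial reference genes (Cdh5, Pecam1, Tie1, Esam, Erg, Egfl7, Cldn5 and Ptprb) or 14 leukocyte markers had a median of 0. The summed TPM of the endothelial reference genes lay at 49.9 to 192 in NT and 19.8 to 101 in LEN tumors, and in 12 of 12 models all LEN tumors lay below all NT tumors. In tissue RNA, fewer cells of a type and less RNA per cell cannot be told apart.

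All 8 genes are protein-coding. On GRCm38, Sele (chr1:164048234-164057677, plus strand) and Selp (chr1:164115264-164150026, plus strand) lie near each other on chromosome 1, which also holds Ackr1 (chr1:173331886-173333750, minus strand) and Cd34 (chr1:194938819-194961279, plus strand). Icam1 lies at chr9:21015985-21028817 (plus strand), Icam2 at chr11:106377656-106388075 (minus strand), Vcam1 at chr3:116109949-116129688 (minus strand) and Selplg at chr5:113818536-113832644 (minus strand). Vcam1, Icam1, Selp and Cd34 overlap non-coding genes on the opposite strand, and Ackr1 overlaps Cadm3 on the same strand. Whether the counting used strand is not given in the sources used here, so reads shared with these neighbours cannot be told apart.

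The sequences before the start sites are shown for 3 genes that rose with LEN in B16-F10 tumors (Icam1, Sele and Selp) and for Cd34, which did not. Each is 250 bases long, reads 5′ to 3′ on the gene's strand and ends at the base before the RefSeq transcript start (GRCm38.p6). Capitals mark matches to the letters GGG, any 5 bases and CC, an NF-kB-like motif searched on both strands, and, in Sele, to the TATA box letters TATAAA. The windows are chr9:21015690-21015939 for Icam1, chr1:164047984-164048233 for Sele, chr1:164115014-164115263 for Selp and chr1:194938571-194938820 for Cd34.
Icam1: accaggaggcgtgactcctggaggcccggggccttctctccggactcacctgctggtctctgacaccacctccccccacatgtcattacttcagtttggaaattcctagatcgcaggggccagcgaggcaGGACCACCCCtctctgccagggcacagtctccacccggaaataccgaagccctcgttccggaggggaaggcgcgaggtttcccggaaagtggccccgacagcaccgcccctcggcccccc
Sele: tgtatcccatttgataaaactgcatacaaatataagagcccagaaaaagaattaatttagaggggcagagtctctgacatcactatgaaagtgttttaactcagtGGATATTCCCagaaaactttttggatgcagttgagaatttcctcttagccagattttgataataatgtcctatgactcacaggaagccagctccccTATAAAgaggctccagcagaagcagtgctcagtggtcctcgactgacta
Selp: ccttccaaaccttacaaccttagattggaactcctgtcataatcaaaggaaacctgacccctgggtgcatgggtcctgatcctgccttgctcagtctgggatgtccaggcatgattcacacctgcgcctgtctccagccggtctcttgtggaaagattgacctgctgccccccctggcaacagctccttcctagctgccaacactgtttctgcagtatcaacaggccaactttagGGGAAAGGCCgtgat
Cd34: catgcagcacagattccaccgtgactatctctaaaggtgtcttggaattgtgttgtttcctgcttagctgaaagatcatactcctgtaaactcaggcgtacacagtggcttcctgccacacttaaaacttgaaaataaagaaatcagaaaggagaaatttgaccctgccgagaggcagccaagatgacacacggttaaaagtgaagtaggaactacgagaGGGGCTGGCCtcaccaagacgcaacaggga
The NF-kB-like match began 120 bases before the start in Icam1 and 145 bases before it in Sele, both on the minus strand. It began 15 bases before the start in Selp and 30 bases before it in Cd34, on the plus strand. Of the 5 members with a promoter window, these 4 held the match and Ackr1, which also rose in B16-F10 and whose window lies almost wholly within its annotated gene and is not shown, did not. No window was matched for Selplg, Vcam1 or Icam2. The match was held by 45.8% of 32851 mouse promoter windows of the same length. The TATAAA letters of Sele began 49 bases before the start, and 12.4% of all windows held them. A match of letters is a description of the window and not a binding site, and binding sites with other letters are not marked.

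In treatment-naive tumors the question was how far the level of each gene differed between models. All 8 genes differed (limma F test over 35 tumors, adjusted p between 2.76e-19 for Vcam1 and 0.00299 for Ackr1), as did 93.6% of the 17542 genes tested. Ackr1 had a mean TPM under 1 and was tested without that minimum, where 68.4% of 35958 genes were called. Sele passed the minimum only through CT26.WT (mean 0.542 TPM over the other 32 tumors), so its adjusted p without the minimum (7.42e-19) is the one to read. CT26.WT tumors held the highest Sele, Selp, Vcam1 and Cd34, Hepa 1-6 tumors the highest Icam1 and Selplg, BNL 1ME A.7R.1 tumors the highest Icam2 and EMT6 tumors the highest Ackr1.

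Sele, E-selectin, is known chiefly as a product of activated endothelium. Its TPM in the 3 treatment-naive CT26.WT tumors was 23.3, 19.1 and 25.9, and it lay between 0 and 2.47, with a median of 0.315, in the other 32 tumors. CT26.WT therefore stood apart from every other model, and EMT6 came next with 1.84, 1.43 and 2.47. The level stayed at 26.0 to 27.6 in NT and 24.6 to 27.3 in LEN tumors of CT26.WT, while no other tumor on day 8 was above 2.2. Selp, P-selectin, is stored in endothelial cells and platelets and is released to the surface within minutes of stimulation. It was 12.5, 14.6 and 17.5 TPM in treatment-naive CT26.WT tumors and 0.11 to 5.64, with a median of 1.39, in the other 32. CT26.WT was again apart from the next model, EMT6, whereas the 10 neighbouring pairs below it in the order overlapped.

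Cd34, a sialomucin of small vessels and hematopoietic progenitors that can carry selectin ligands, reached the highest TPM of the 8 genes. In treatment-naive CT26.WT tumors it was 288, 267 and 327 TPM, in MC38 153 and 118 TPM, and in MBT2 53.2, 46.6 and 54.3 TPM. The other 27 treatment-naive tumors lay between 6.92 and 38.7 TPM, lowest in RAG at 6.92, 8.10 and 6.92. These 3 models and BNL 1ME A.7R.1 were each apart from the next in order, and neighbours below that overlapped except B16-F10 and RAG. The summed endothelial reference genes of CT26.WT (63.3 to 78.9 TPM) lay within the 53.6 to 232 TPM of the other models, as did its platelet markers (26.7 to 45.5 TPM within 14.0 to 130.9). Its mast cell markers summed to 101 to 139 TPM, against 2.16 to 120 TPM elsewhere. On day 8 the endothelial reference genes of CT26.WT summed to 63.2 to 73.6 TPM in NT and 28.15 to 37.9 TPM in LEN tumors. Sele, given above, overlapped between these groups. So did Selp (15.45 to 19.2 in NT and 15.8 to 24.2 TPM in LEN) and Cd34 (237 to 265 and 262 to 298 TPM). The part of these cells, and of the CT26.WT cancer cells, in the levels of Sele, Selp and Cd34 was not tested.

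Selplg, the ligand of P-selectin on leukocytes, was highest in Hepa 1-6 at 45.5, 41.5 and 66.7 TPM and lowest in B16-F10 at 7.03, 7.61 and 5.09 TPM. Hepa 1-6 and MC38 were each apart from the next model, and BNL 1ME A.7R.1, 4T1 and RAG overlapped in the lower part of the order. Icam1, the ligand of the leukocyte integrins LFA-1 and Mac-1, was 134, 121 and 161 TPM in Hepa 1-6 and 3.31 to 15.8 TPM in the other 32 treatment-naive tumors. Only Hepa 1-6, at the top, and B16-F10, at the bottom with 3.97, 3.31 and 3.35 TPM, were apart from their neighbour. Hepa 1-6 kept this rank on day 8, with Icam1 at 64.6 to 92.5 TPM in NT and 91.5 to 106 TPM in LEN tumors.

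Vcam1, the ligand of the integrin VLA-4, separated the models into high and low ones. It lay between 1.71 and 12.1 TPM in the 12 treatment-naive tumors of B16-F10, KLN205, Renca and MBT2 and between 23.4 and 80.2 TPM in the 23 tumors of the other models. The same division held on day 8, at 1.08 to 10.5 against 25.2 to 84.1 TPM in NT and 2.32 to 6.31 against 20.1 to 162 TPM in LEN tumors. The means of the highest and lowest models, CT26.WT and B16-F10, differed 32.0-fold. Icam2, which resting endothelium carries, varied least, with a 3.71-fold range of means from 6.50 ± 2.62 TPM (SD, n = 3) in BNL 1ME A.7R.1 to 1.75 ± 0.65 TPM in KLN205. Ackr1, a chemokine-binding receptor that marks venules, was low everywhere, at 0 to 3.09 TPM, and all 11 neighbouring pairs of models overlapped.

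**Figure D1:**
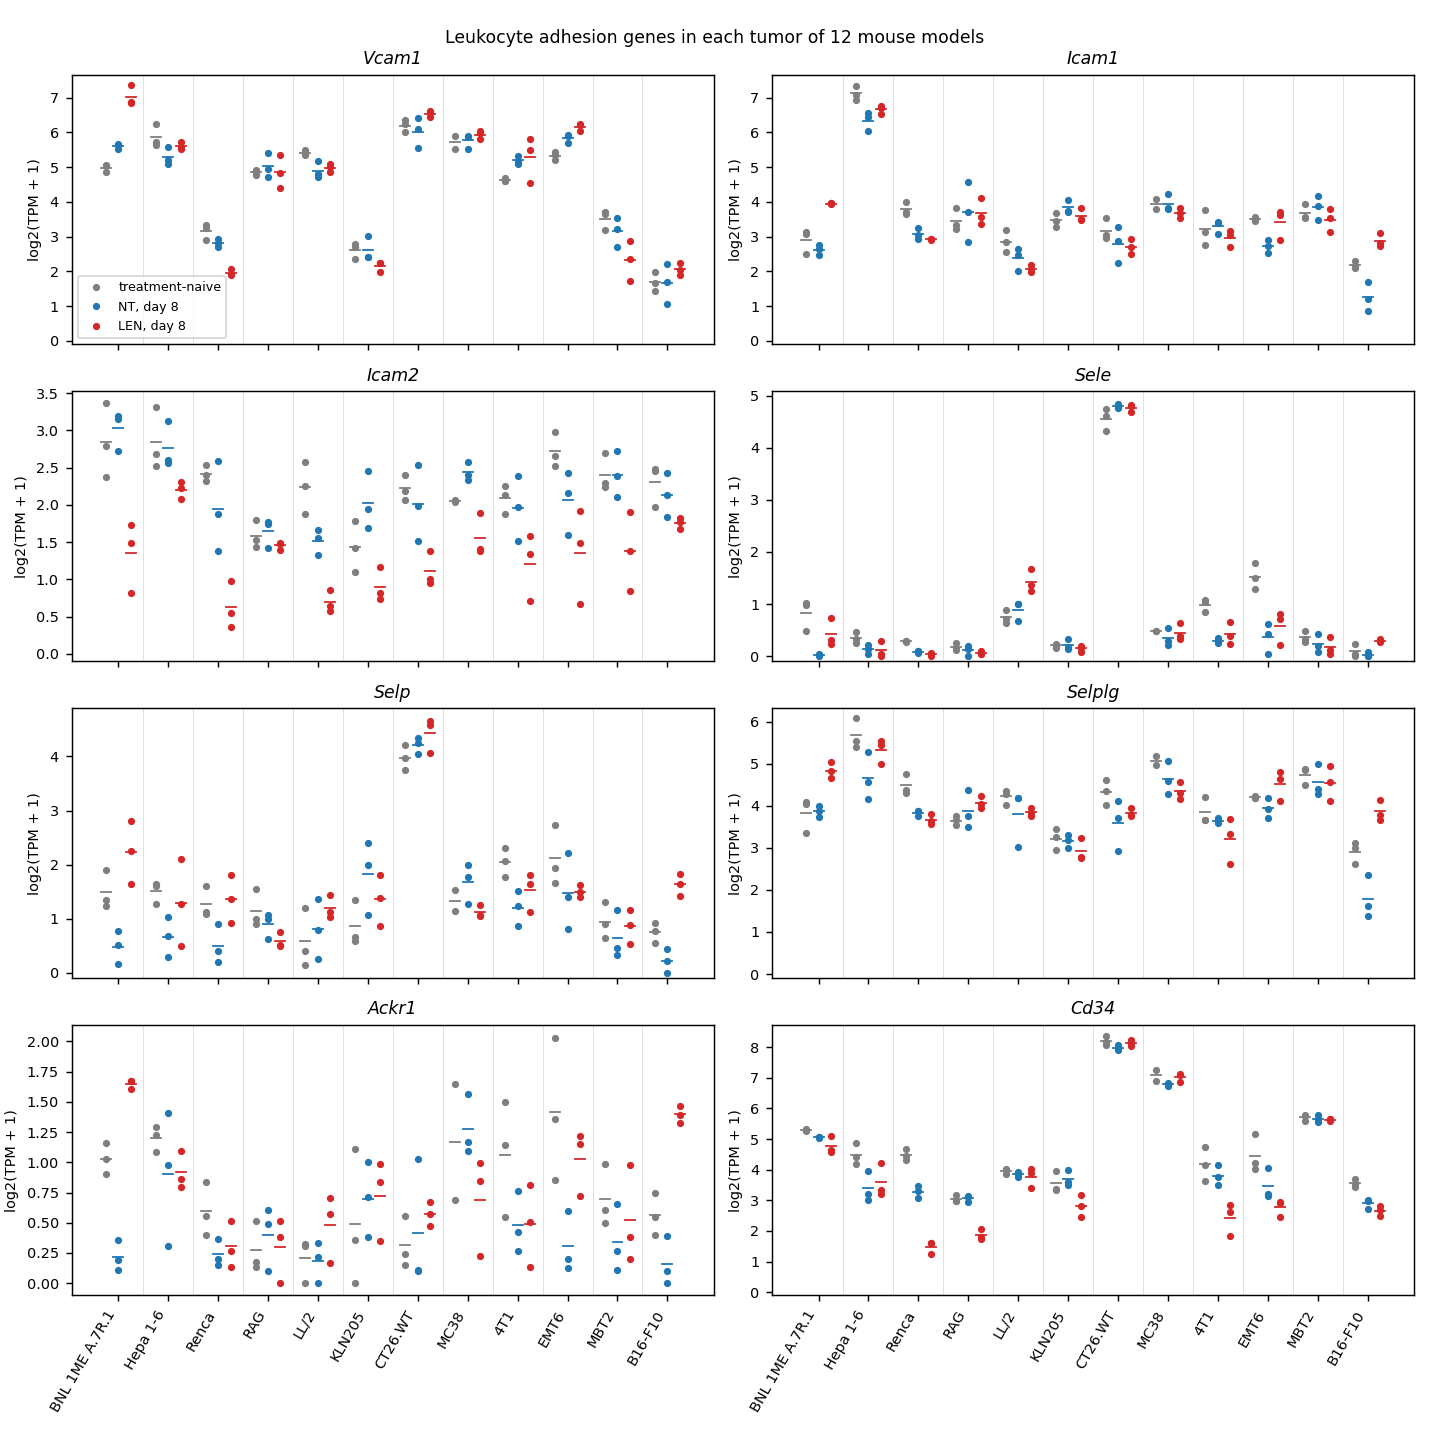
Level of each gene as log2(TPM + 1) (y axis, scales differ between panels) in every tumor of the 12 models (x axis). Grey points are treatment-naive, blue NT and red LEN tumors, and each short line is the mean of its 3 tumors (2 for treatment-naive MC38). Sele and Selp stood high in CT26.WT, Icam1 in Hepa 1-6 and Cd34 in CT26.WT, MC38 and MBT2. The mean of Icam2 was lower in LEN than in NT tumors of every model, with the tumors apart in 9 of 12.

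The main comparison asked how LEN changed these genes against NT on day 8. Averaged over the 12 models (72 tumors), Icam2 and Cd34 fell, and Selp, Selplg, Sele and Ackr1 rose. Icam1 and Vcam1 did not pass the test. Among all 17351 genes tested, 9.87% were lower and 13.7% higher, and without a minimum TPM, as used for Ackr1 and Sele, 7.21% of 37673 were higher. The LEN change differed between models for 6 of the 8 genes (F test, adjusted p under 0.05), as it did for 35.3% of all genes tested and for 20.9% without the minimum. Icam2 (adjusted p = 0.103) and Sele (adjusted p = 0.0663 without a minimum TPM) did not pass this F test of the difference between models. Sele passed it under several other settings, which are given below. Of all genes called in the mean comparison, 58.1% were higher, against 41.9% after upper-quartile rescaling and 31.9% after rescaling without the 6 abundant RNAs, and no member changed sign under either.

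Icam2 was the only member with a lower mean in every model. Its lowest, median and highest TPM were 1.52, 3.43 and 8.19 in the NT and 0.28, 1.61 and 3.97 in the LEN tumors. Its mean was lower with LEN in 12 of 12 models, and the LEN tumors lay below all NT tumors in 9 of them, as they did for a median over models of 9.18% of all genes (5.02% to 23.7%). The mean log2 change was -0.86 (SE 0.082, limma, adjusted p = 4.93e-12), from -1.68 in BNL 1ME A.7R.1 to -0.19 in RAG. In BNL 1ME A.7R.1 it was 8.19, 7.91 and 5.61 TPM in NT against 1.81, 0.77 and 2.33 TPM in LEN tumors.

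Cd34 fell on average, and by unequal amounts. Its lowest, median and highest TPM were 5.61, 13.1 and 265 in the NT and 1.38, 8.045 and 298 in the LEN tumors. The mean log2 change was -0.50 (SE 0.065, limma, adjusted p = 2.83e-08), and it differed between models (adjusted p = 2.62e-07). In Renca it was 7.44, 8.78 and 10.1 TPM in NT and 2.01, 2.01 and 1.38 TPM in LEN tumors, a log2 change of -1.80 (adjusted p = 0.000766). All LEN tumors also lay below all NT tumors in RAG, 4T1, EMT6 and KLN205. In MC38 the order was the opposite, with 113, 108 and 106 TPM in NT and 116, 139 and 136 TPM in LEN tumors. In CT26.WT and MBT2, which together with MC38 held the most Cd34, the log2 changes were 0.17 and -0.02, and both groups overlapped.

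All 8 endothelial reference genes fell with LEN, with a median log2 change of -0.73 beside -0.0019 for all genes. The members were therefore also compared after the mean log2(TPM + 1) of the reference genes was subtracted in each tumor. On that scale 98.4% of all genes were higher and 0.121% lower, so that being higher says nothing about a member. Icam2 did not differ detectably from the reference genes (log2 difference -0.07, 95% interval -0.22 to 0.09, adjusted p = 0.405), nor with a pseudocount of 0.1, where the difference was -0.22 (adjusted p = 0.0677). Cd34 had a log2 difference of 0.30 (95% interval 0.19 to 0.41), on the side where nearly all genes lay, and was above the reference genes in 8 of 12 models and below them in Renca by the most (-0.69).

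**Figure D2:**
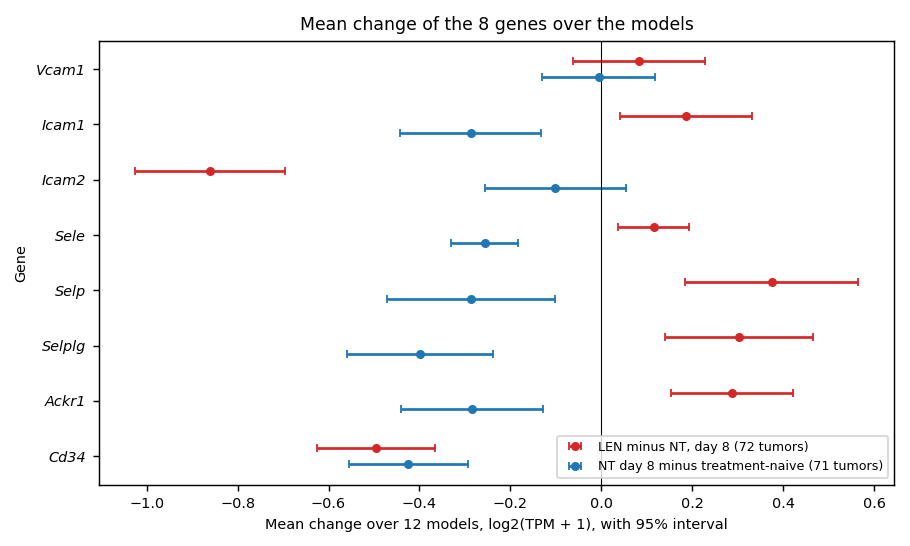
Mean change over the 12 models in log2(TPM + 1) (x axis) of each gene (y axis), with LEN minus NT in red and NT minus treatment-naive in blue. Points are limma estimates and bars their 95% intervals, unadjusted; the 2 comparisons share the NT tumors. With LEN, Icam2 (-0.86) and Cd34 (-0.50) lay below 0 and Selp, at 0.37, highest, and all 8 estimates of NT against treatment-naive tumors were below 0, with the intervals of Icam2 and Vcam1 crossing it.

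The mean rises rested on few models. Selp had a mean log2 change of 0.37 (SE 0.095, limma, adjusted p = 0.00216) and was higher with LEN in 9 of 12 models. Selplg changed by 0.30 (adjusted p = 0.00377), Ackr1 by 0.29 (adjusted p = 0.00156, higher in 10 of 12 models) and Sele by 0.12 (adjusted p = 0.0305 without a minimum TPM, higher in 6 and lower in 6). Sele was over the minimum only through CT26.WT, its mean being 0.283 TPM in the other models, and with the minimum its adjusted p was 0.0244. Icam1 had a log2 change of 0.19 (adjusted p = 0.0556) with lower means in 8 of 12 models, and it passed the test in 22 of 84 fits without 1 model or 1 tumor. Vcam1 had 0.08 (adjusted p = 0.461), and -0.04 without BNL 1ME A.7R.1. Without BNL 1ME A.7R.1 and B16-F10, left out together only once these values had been seen, the log2 changes were 0.13 for Selp (adjusted p = 0.449), 0.06 for Selplg (0.732), 0.08 for Ackr1 (0.650) and 0.07 for Sele (0.309). Those of Icam1 and Vcam1 were -0.07 and -0.08. Icam2 (-0.83, adjusted p = 3.92e-09) and Cd34 (-0.54, adjusted p = 4.90e-07) still passed the test. Leaving out 1 model ended the call of Selp (BNL 1ME A.7R.1), Selplg (B16-F10), Ackr1 (either of them) and Sele (either of them, or LL/2).

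Fitted model by model, LEN and NT differed for 14 of the 96 pairs of a gene and a model, 4 lower and 10 higher, in BNL 1ME A.7R.1, B16-F10 and Renca. Without a minimum TPM the counts were 3 and 10, Icam2 in Renca, which passed the minimum only through its NT tumors, no longer being called. In BNL 1ME A.7R.1 5.21% of all genes were lower and 26.3% higher, in B16-F10 2.42% and 8.57%, and in Renca 7.15% and 4.91%. In the other 9 models at most 0.15% were lower and 0.819% higher, and no member was called. With 3 tumors against 3, an exact permutation test cannot go below p = 0.1, so only the limma fits are given.

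In BNL 1ME A.7R.1, Vcam1 was 44.6, 49.4 and 48.7 TPM in NT and 162, 116 and 114 TPM in LEN tumors, a log2 change of 1.42 (adjusted p = 0.000552). Icam1 was 5.75, 5.20 and 4.53 TPM in NT and 14.3, 14.5 and 14.5 TPM in LEN tumors. Selp was 0.71, 0.43 and 0.12 TPM in NT and 2.11, 3.74 and 6.00 TPM in LEN tumors. In each of the 3 genes LEN and NT tumors were apart, by log2 changes of 1.33 in Icam1 (adjusted p = 0.000185) and 1.75 in Selp (adjusted p = 0.00782). Selplg (log2 change 0.97, adjusted p = 0.00141) and Ackr1 (1.43, adjusted p = 0.00183) rose as well, Ackr1 from 0.08, 0.14 and 0.28 TPM to 2.04, 2.18 and 2.18 TPM. Selp and Ackr1 were over the minimum only through the LEN tumors, and without a minimum TPM, where 15.7% of all genes were higher, their adjusted p was 0.0159 and 0.00102. Sele was 0.03, 0.02 and 0 TPM in NT and 0.18, 0.67 and 0.24 TPM in LEN tumors and did not pass (adjusted p = 0.0918, without a minimum TPM). Icam2 fell in the same tumors (log2 change -1.68, adjusted p = 0.00384).

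In B16-F10, Icam1 was 1.29, 2.25 and 0.82 TPM in NT and 7.52, 5.69 and 6.10 TPM in LEN tumors, a log2 change of 1.63 (adjusted p = 0.00755). Selplg was 2.08, 4.14 and 1.62 TPM in NT and 16.7, 11.7 and 12.9 TPM in LEN tumors, a log2 change of 2.08 (adjusted p = 0.00571). LEN tumors lay above all NT tumors in both genes. Selp went from 0.35, 0.16 and 0 TPM to 1.69, 2.14 and 2.55 TPM (adjusted p = 0.0114, or 0.0129 without the minimum, which it passed only through the LEN tumors) and Ackr1 from 0.31, 0.07 and 0 TPM to 1.76, 1.63 and 1.51 TPM (adjusted p = 0.0111, without a minimum TPM). Sele was listed at 0, 0.05 and 0 TPM in NT and was 0.25, 0.22 and 0.20 TPM in LEN tumors (adjusted p = 0.0297, without a minimum TPM, where 4.54% of all genes were higher), a call that was lost without any 1 of the 6 tumors. Vcam1 was 2.22, 3.65 and 1.08 TPM in NT and 3.75, 2.72 and 3.09 TPM in LEN tumors, which overlapped.

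In Renca, the called members were lower. Vcam1 was 6.07, 5.54 and 6.68 TPM in NT and 2.77, 2.71 and 3.22 TPM in LEN tumors, a log2 change of -0.86 (adjusted p = 0.00388). Icam2 was 1.60, 5.03 and 2.69 TPM in NT and 0.46, 0.97 and 0.28 TPM in LEN tumors (adjusted p = 0.0413), a call that was lost in 5 of 6 fits without 1 tumor and without a minimum TPM (0.0864), which it passed only through the NT tumors. Cd34 fell as given above. Selp, at 0.32, 0.15 and 0.87 TPM in NT and 1.58, 0.90 and 2.5 TPM in LEN tumors, stood apart in the other direction. It did not pass the limma test (adjusted p = 0.104, or 0.153 without the minimum, which it passed only through the LEN tumors).

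**Figure D3:**
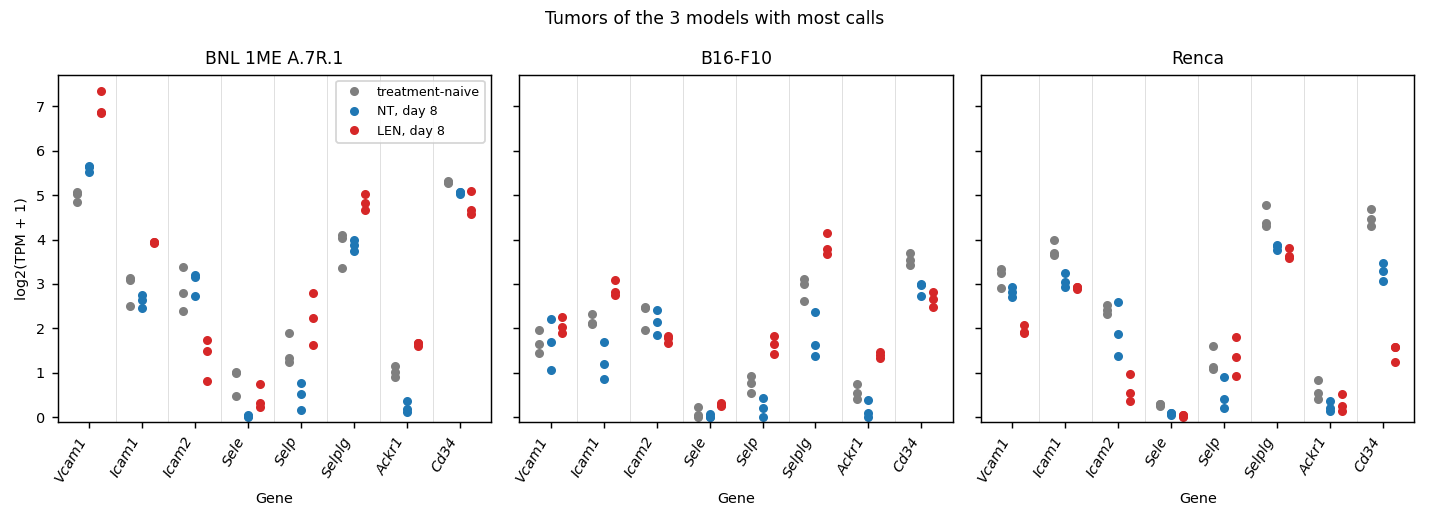
Level of the 8 genes (x axis) as log2(TPM + 1) (y axis) in the tumors of BNL 1ME A.7R.1, B16-F10 and Renca, the 3 models with called genes. Each point is 1 tumor, grey treatment-naive, blue NT and red LEN. In BNL 1ME A.7R.1 and B16-F10 the LEN tumors lay above NT in Icam1, Sele, Selp, Selplg and Ackr1, and in all 3 models below NT in Icam2.

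Markers of other cells moved along with these changes. In BNL 1ME A.7R.1, all 8 endothelial reference genes were lower in every LEN than in every NT tumor, and so were 6 of 8 in B16-F10 and 8 of 8 in Renca. Across all genes averaging 1 TPM or more, 38.1% were higher and 9.21% lower in every LEN than in every NT tumor of BNL 1ME A.7R.1, 20.3% and 11.3% in B16-F10, and 13.3% and 19.4% in Renca, and the counts of markers are to be read against these shares. Of 14 leukocyte markers, 8 were higher and 1 lower in all LEN tumors of BNL 1ME A.7R.1 (summed TPM 443 to 507 against 413 to 420 in NT) and 11 in those of B16-F10 (158 to 191 against 36.2 to 66.3). In Renca 4 were higher and 6 lower (217 to 241 against 323 to 366). Of 6 skin, fat and muscle markers, 5 were higher in BNL 1ME A.7R.1 (summed TPM 952 to 1409 against 20.2 to 71.7) and 5 in B16-F10 (87.8 to 155 against 1.31 to 11.8), and none was apart in Renca. All 8 fibroblast markers were higher in LEN tumors of B16-F10 (388 to 486 against 88.7 to 114 TPM), and in BNL 1ME A.7R.1 3 were higher and 5 lower. Of 6 mast cell markers, 4 were higher and 1 lower in BNL 1ME A.7R.1 (43.9 to 56.8 against 10.7 to 12.4 TPM), 4 were higher and none lower in B16-F10 (7.86 to 15.8 against 5.03 to 5.79 TPM), and none was higher and 1 lower in Renca (0.53 to 0.97 against 1.11 to 2.23 TPM). Of 6 platelet markers, 1 was lower in BNL 1ME A.7R.1 (summed TPM 18.3 to 26.3 against 29.8 to 39.5 in NT) and 2 in Renca (17.3 to 19.8 against 26.2 to 30.5), with none higher in either, and 1 was higher in B16-F10. Of 6 erythroid markers, 2 were lower and none higher in each of the 3 models, with summed levels of 41.9 to 53.3 against 116 to 183 TPM in BNL 1ME A.7R.1, 22.3 to 26.7 against 129 to 1666 TPM in B16-F10 and 6.11 to 9.55 against 50.2 to 78.8 TPM in Renca. In these lists and models the markers at 0 in every NT and LEN tumor included Treml1 (platelets) in B16-F10 and Fcer1a (mast cells) in Renca. The part of these cells in the members' changes was not tested.

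**Figure D4:**
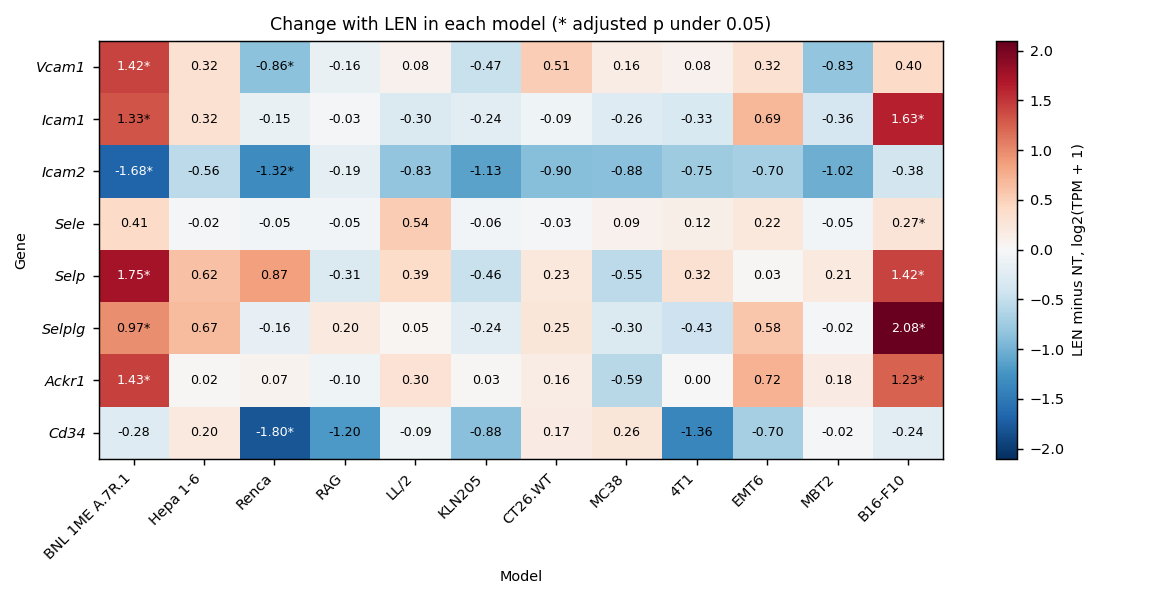
Difference of mean log2(TPM + 1) between 3 LEN and 3 NT tumors for each gene (rows) in each model (columns), with the value in each cell. Red is higher and blue lower with LEN, and stars mark an adjusted p under 0.05 in the fit of that model (without a minimum TPM where the gene's mean TPM was under 1). Icam2 was negative in all 12 models, and the stars stood in BNL 1ME A.7R.1, B16-F10 and Renca.

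The partners of these molecules were counted over the 12 models as well, beside 13.7% of all genes higher and 9.87% lower. After upper-quartile rescaling these shares were 13.1% and 18.2%, and after rescaling without the 6 abundant RNAs 9.22% and 19.7%. Of 11 leukocyte counter-receptors, 6 rose and 1 fell with LEN (median log2 change 0.13, all genes -0.0019), against 5 and 4 that were higher under these rescalings. Itgb7 rose by 0.51 (adjusted p = 9.17e-09) and Itgb2, the shared chain of LFA-1 and Mac-1, by 0.33. Itga4, the chain of VLA-4 that binds Vcam1, had a log2 change of -0.35 (adjusted p = 3.45e-05). Of 9 tested genes of selectin ligand synthesis, 4 rose and none fell (4 and 3 higher and 1 lower under the rescalings), led by Gcnt1, a branching glycosyltransferase, with 0.33 (adjusted p = 5.88e-08). The median log2 change of that list was 0.06.

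The lists of vessel and NF-kB genes are read against the same shares. Among genes of junctions and transmigration, 4 fell and 3 rose of 10 (median log2 change -0.12), and 6 were lower under either rescaling. Cdh5, which seals endothelial junctions, had a log2 change of -1.17, Mcam -0.84, Esam -0.74 and Pecam1 -0.72. The genes that rose, named here after their values were seen, were Alcam, Cd47 and Jam2, of which Jam2 did not pass after rescaling without the abundant RNAs. Of 7 other tested endothelial adhesion genes and sialomucins, 4 fell and none rose (median -0.18), among them Emcn (adjusted p = 9.38e-17), a sialomucin of capillaries and veins, and Stab1 (-0.62). Of 5 venous genes, Flt4 fell (-0.74), Lrg1 (0.71) and Nr2f2 (0.11) rose, Nr2f2 under neither rescaling, and the median was 0.07. Of 14 tested genes of the NF-kB pathway and inflammatory cytokines, 7 rose and none fell (median 0.13), with 8 and 5 higher under the rescalings. Cxcl2 had 0.55, Il1b 0.54, and Tnfaip3, an inhibitor of the pathway and also its target, 0.41. The summed TPM of this list was higher in all LEN than in all NT tumors of 5 models and overlapped in 7. The counts of these lists too were not repeated without BNL 1ME A.7R.1 and B16-F10.

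The marker lists over all models gave the setting of these changes, again beside 13.7% of all genes higher and 9.87% lower. Of 12 tested leukocyte markers 6 rose, among them the neutrophil genes S100a9 (0.90) and S100a8 (0.73) and the T cell gene Cd3e (0.47), and 2 fell, among them the macrophage gene Csf1r (-0.45). The list's median was 0.14. Its summed TPM was higher in all LEN than in all NT tumors of 3 models, lower in 2 and overlapping in 7. All 3 tested erythroid markers fell (median -2.12), 1 of 4 tested platelet markers fell (Pf4, -0.24), and 4 of 5 tested skin, fat and muscle markers rose (median 0.59). The summed skin, fat and muscle markers were higher in all LEN than in all NT tumors of 3 models and overlapped in 9. Of 8 fibroblast markers 3 rose and 1 fell (median 0.11), and of 5 tested mast cell markers 1 fell (Kit, -0.33) with a median of 0.13.

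The comparison of NT tumors on day 8 with treatment-naive tumors (71 tumors) set untreated tumors of different collections side by side. It shares the NT tumors with the comparison of LEN and NT, so that a high or low NT value enters both with opposite sign. The sequencing platform of each tumor is not given in the sources used here. Growth, time of collection and sequencing therefore cannot be told apart in this comparison. Of the 8 genes, 6 were lower in NT tumors and none higher, where 11.5% of the 17428 genes tested were lower and 17% higher (for Ackr1 and Sele, without a minimum TPM, 7.51% of 37747 were lower). Of all genes called, 59.7% were higher, against 28.8% after upper-quartile rescaling and 30.2% after rescaling without the 6 abundant RNAs, and no member changed sign under either. The log2 changes were -0.42 for Cd34 (SE 0.065, limma, adjusted p = 2.44e-06), -0.40 for Selplg (adjusted p = 0.000153), -0.29 for Icam1 (0.00392), -0.29 for Selp (0.0157), -0.28 for Ackr1 (0.00769) and -0.26 for Sele (7.52e-07), the last 2 without a minimum TPM. Sele was over the minimum only through CT26.WT (mean 0.372 TPM in the other models), and its adjusted p with the minimum was 9.12e-07. Icam2 had -0.10 (adjusted p = 0.348) and Vcam1 -0.01 (adjusted p = 0.957). The call of Selp was lost without BNL 1ME A.7R.1, 4T1, Renca or Hepa 1-6, and that of Ackr1 without BNL 1ME A.7R.1 or EMT6.

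This change also differed between models for 6 genes, as it did for 66.5% of all genes tested (35.2% without the minimum, as used for Ackr1). The call of Selplg, 1 of the 6, was lost without the minimum and after either rescaling. For Sele, over the minimum only through CT26.WT, the adjusted p was 1.99e-08 without it and 3.66e-08 with it. In EMT6 it was 1.84, 1.43 and 2.47 TPM in treatment-naive and 0.53, 0.03 and 0.34 TPM in NT tumors, and in BNL 1ME A.7R.1 0.40, 1.03 and 0.98 against 0.03, 0.02 and 0 TPM. In CT26.WT the NT tumors, at 26.0, 26.8 and 27.6 TPM, lay above the treatment-naive ones. Cd34 changed most in Renca, from 18.8, 24.8 and 20.9 TPM in treatment-naive to 7.44, 8.78 and 10.1 TPM in NT tumors, a log2 change of -1.20. Vcam1 was higher in NT than in treatment-naive tumors of BNL 1ME A.7R.1, by a log2 change of 0.62, and lower in Hepa 1-6, by -0.58. In B16-F10, Icam1, Selp, Selplg and Ackr1 were each lower in all NT tumors than in all treatment-naive tumors, and their LEN tumors lay above both groups, as was the case for 2.32% of 15841 genes averaging 1 TPM or more, as Icam1 and Selplg did, and for 1.67% of 29355 genes without a minimum TPM. These 4 genes were named after their values were seen. Beside 11.5% of all genes lower and 17% higher, of the 12 tested leukocyte markers 5 were lower and none higher in NT than in treatment-naive tumors, and of 6 skin, fat and muscle markers 4 were lower; their part in the members' changes was not tested.

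How the genes varied together was described over all tumors after the mean of each model and group was subtracted, which leaves differences between tumors of one group. Such tumors share composition, and the median correlation of a member with all 17428 genes was 0.11 to 0.23, so the values are given without a test. Icam1 and Selplg were the most alike of the members (Pearson r = 0.80), followed by Vcam1 with Icam1 (0.60) and with Selplg (0.59). Selp and Cd34 had r = 0.53. The genes nearest to Selplg were Ptprc, the common leukocyte antigen (0.88), Il10ra (0.86) and Rac2 (0.86), and those nearest to Icam1 were Themis2 (0.88), Cfb (0.88) and Il10ra (0.86). Vcam1 was nearest to Cd86 (0.71), Tmem173 (0.71) and Ucp2 (0.69).

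The genes nearest to the other members were matched less closely. For Cd34 they were Emb (0.70), Gfra2 (0.69) and Fbn1 (0.68), and for Ackr1 Cxcl12 (0.67), Adamts15 (0.64) and Lum (0.64). For Selp they were Fbln5 (0.66), Fxyd6 (0.65) and Svep1 (0.64). Icam2 was nearest to Gimap4 (0.53), Scarf1 (0.52) and Tcn2 (0.52), and Sele to Rfng (0.52), Gm43533 (0.51) and Ms4a14 (0.50). The median correlation with the 14 leukocyte markers was 0.68 for Selplg, 0.65 for Icam1 and 0.55 for Vcam1, against 0.24, 0.19 and 0.27 with the 8 endothelial reference genes. For Cd34 and Selp it was 0.33 and 0.36 with the leukocyte markers and 0.48 and 0.45 with the endothelial reference genes. For Sele, Ackr1 and Icam2 it was 0.31, 0.43 and 0.33 with the leukocyte markers and 0.23, 0.36 and 0.34 with the endothelial reference genes.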

How the data were processed

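Bulk RNA from 107 subcutaneous mouse tumors was depleted of ribosomal RNA and sequenced by the authors. Per the labels and the submitters' processing notes, reads were trimmed with Trimmomatic 0.36, aligned to mm10 (GRCm38) with STAR 2.5.2b and quantified with RSEM 1.2.31. The deposited table holds TPM per gene and tumor, normalized by the authors for transcript length and to a fixed total, so the depth is unknown, and 0 columns belonged to no sample.

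The 8 genes and all gene lists were chosen with earlier results of these data known. Values were tested as log2(TPM + 1) with limma 3.58.1 in R 4.3.3 (lmFit, eBayes with trend), with a mean for each model and group, genes of mean TPM of at least 1 and Benjamini-Hochberg adjusted p under 0.05 over all genes tested. Members under that minimum were tested in the same fit without it, and those that 1 model or group alone brought over it both with and without it. Comparisons were LEN with NT averaged over 12 models and within each model, the same relative to 8 endothelial reference genes, NT with treatment-naive, and treatment-naive levels across models. Tables and figures were made with Python 3.11.15, pandas 2.3.3, scipy 1.17.1, numpy 2.4.6 and matplotlib 3.10.9. Named were the members, the genes of each list with the largest LEN change, and the 3 genes most correlated with each member, apart from genes that are not reported here.

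No pairing of tumors by replicate number was detected. Of 20 same-numbered NT and LEN pairs, 0 had a correlation of deviations over 0.1, and of 25 treatment-naive and NT pairs, 1 did. Among pairs of different numbers 3 of 88 and 6 of 80 did, so the check could miss a weak pairing. In simulated data for LEN against NT (72 tumors, 17207 genes), 95.8% of 189 genes changed by 0.5 on the log2 scale were recovered. For the 6 tumors of BNL 1ME A.7R.1, 93.8% of 178 genes changed by 2 were recovered. Over the 72 tumors the change was the same in every model. The recovery therefore does not describe smaller changes, changes that differ between models, or genes under the minimum TPM. The alternatives were other pseudocounts, minimum TPM, rescalings, no trend, a replicate block, another endothelial reference, and leaving out each tumor or model.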

Additional observations from a re-analysis of the deposited data

Results flagged for a closer look

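The response to LEN differed between the 12 models for 6 of the 8 genes, by a limma F test of the LEN minus NT changes over 72 tumors, which called 35.3% of all genes (20.9% without a minimum TPM, as used for Ackr1). The adjusted p was 2.62e-07 for Cd34, 5.92e-06 for Icam1, 3.57e-05 for Selplg, 3.68e-05 for Vcam1, 7.78e-05 for Ackr1 (without a minimum TPM) and 0.000717 for Selp. The model changes on the log2(TPM + 1) scale ran from -1.80 in Renca to 0.26 in MC38 for Cd34, from -0.36 in MBT2 to 1.63 in B16-F10 for Icam1 and from -0.86 in Renca to 1.42 in BNL 1ME A.7R.1 for Vcam1. Without BNL 1ME A.7R.1 and B16-F10, left out together once these values had been seen, the adjusted p was 0.294 for Icam1, 0.218 for Selp, 0.293 for Selplg and 0.377 for Ackr1, whereas Vcam1 and Cd34 still passed.

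The change from treatment-naive to NT tumors differed between models for 6 genes as well, where 66.5% of all genes were called, so the count says little about these genes. The adjusted p was 3.66e-08 for Sele (1.99e-08 without a minimum TPM, which it passed only through CT26.WT), 0.000712 for Cd34, 0.00155 for Vcam1, 0.0023 for Selp, 0.00888 for Icam1 and 0.0393 for Selplg. Sele changed by -1.17 in EMT6 and by 0.24 in CT26.WT, and Selp by -1.01 in BNL 1ME A.7R.1 and by 0.96 in KLN205. The difference for Selplg did not pass without a minimum TPM (adjusted p = 0.0737), after upper-quartile rescaling (0.269) or after rescaling without the 6 abundant RNAs (0.164), nor in 21 of 83 fits without 1 tumor or model. Of the genes not counted, Icam2 passed in 26 of those 83 fits and with a pseudocount of 0.1 (adjusted p = 0.0400), and Ackr1 passed in 13 of 83. Both comparisons use the same NT tumors.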

How the results depend on the processing

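Over the settings run for each gene (a minimum TPM of 5 leaves Icam2 and Sele untested) and the fits without 1 tumor or model, the mean LEN changes of Icam2 and Cd34 and the treatment-naive to NT changes of Cd34, Selplg, Icam1 and Sele kept their direction and their side of the threshold. Sizes of low genes grew by over 1.5 times with a pseudocount of 0.1: for LEN, Selp 0.78 and Ackr1 0.78, and from treatment-naive to NT, Sele -0.87, Selp -0.63 and Ackr1 -0.74. Within models they were 3.03 and 3.28 for Selp and 3.13 and 3.18 for Ackr1 in BNL 1ME A.7R.1 and B16-F10, 1.85 (adjusted p = 0.0326, now passing) and 1.5 for Sele, and -2.25 for Icam2 in Renca. For LEN against NT, Icam1 passed with a pseudocount of 0.1 (0.23, adjusted p = 0.0347) and a minimum TPM of 5 (0.19, adjusted p = 0.0484), and Sele did not with a pseudocount of 0.1 (0.35, adjusted p = 0.0532). Without BNL 1ME A.7R.1 and B16-F10, chosen after seeing the data, the log2 changes were 0.0713 for Sele, 0.133 for Selp, 0.0581 for Selplg and 0.0790 for Ackr1, none passing, and -0.0840 for Vcam1 and -0.0730 for Icam1. In that setting 932 genes were higher and 2042 differed between models. Genes lower with LEN numbered 3169 after upper-quartile rescaling and 3671 after rescaling without 6 abundant RNAs, against 1712.

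Relative to the endothelial reference, 37394 genes were higher without a minimum TPM and 11041 with a minimum of 5, fewer or more genes being tested. With Cdh5, Pecam1 and Tie1 as reference, 13 genes were lower and the log2 difference of Icam2 was 0.0537 (adjusted p = 0.484), its other settings giving -0.22 to -0.03. From treatment-naive to NT, genes lower numbered 951 (minimum TPM of 5), 3516 (upper quartile) and 3535 (without abundant RNAs), and genes higher 1421 and 1526 under the rescalings. Within models, a minimum TPM of 5 left 1 pair lower and 4 higher, fewer members being tested, and contrasts of the fit of all 72 tumors gave 9 lower and 11 higher, adding Icam2 in MBT2 and KLN205, Cd34 in RAG, 4T1 and KLN205, and Sele in LL/2 (adjusted p = 0.0249) and BNL 1ME A.7R.1 (0.0214), and losing Sele in B16-F10 (0.256). Cd34 in BNL 1ME A.7R.1, not called in the main fit, had log2 changes of -0.48 to -0.28 over the settings, with a lowest limma adjusted p of 0.0410. It also passed in 1 of 6 fits without 1 tumor (adjusted p = 0.00875). The cause of the other shifts was not tested.

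Leaving out 1 tumor or model gave, for LEN against NT, 1440 to 3262 genes higher and 3443 to 8663 genes differing between models, with the lowest of each without BNL 1ME A.7R.1. The log2 changes ranged from -0.0396 to 0.17 for Vcam1, 0.0544 to 0.24 for Icam1, 0.0771 to 0.13 for Sele, 0.25 to 0.46 for Selp, 0.14 to 0.37 for Selplg and 0.18 to 0.37 for Ackr1. From treatment-naive to NT, 1765 to 3891 genes were higher, and the log2 changes ranged from -0.0628 to 0.0462 for Vcam1, -0.40 to -0.22 for Selp and -0.33 to -0.21 for Ackr1. A replicate block (duplicateCorrelation on the shared numbers, for which no pairing was detected) changed no member's mean call, with Icam2 at -0.85. It brought the difference of Sele between models under LEN to an adjusted p of 0.045 in the F test. That difference also passed with a pseudocount of 0.1 (0.037), after upper-quartile rescaling (0.015), without the abundant RNAs (0.0441), without the trend (0.0444) and in 9 of 84 fits without 1 tumor or model. These settings kept the minimum TPM, which Sele passed only through CT26.WT. TPM without counts gives no counting error, which limits Sele and Ackr1 most.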

Other observations

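The lists of partners and markers were also compared between NT and treatment-naive tumors (71 tumors, limma, all genes median 0.013 on the log2 scale), where 11.5% of all genes were lower and 17% higher. After upper-quartile rescaling these shares were 20.1% and 8.13%, and after rescaling without the 6 abundant RNAs 18.8% and 8.1%. Of 11 leukocyte counter-receptors 4 were lower and 2 higher, with 7 lower under either rescaling. Of 9 tested genes of selectin ligand synthesis 3 were lower and 1 higher, the last under neither rescaling. Among 10 genes of junctions and transmigration 4 were lower and none higher, and among 7 other tested endothelial adhesion genes 3 were lower and none higher. After upper-quartile rescaling 6 and 4 of these lists were lower, and without the abundant RNAs 5 and 3. Venous genes gave 1 lower and 1 higher of 5, and NF-kB pathway and cytokine genes 1 lower and 2 higher of 14, against 2 lower and none higher, and 3 and 2 lower and 1 higher, under the rescalings. Of the 8 endothelial reference genes 5 were lower, with a list median of -0.19, against 7 after upper-quartile rescaling and 5 without the abundant RNAs. Of 8 fibroblast markers 6 were lower (median -0.43), and of 5 tested mast cell markers 3 (median -0.35). Under either rescaling 8 fibroblast and 4 mast cell markers were lower. No erythroid marker of 3 tested passed, and 1 of 4 tested platelet markers was lower.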
